A study of Saccharomyces cerevisiae with 12 samples.

Results

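The COS genes of budding yeast (Saccharomyces cerevisiae) were examined for their RNA levels in cells that lack EUC1 or carry a point mutation in it. COS8 was chosen by its measured difference from wild type, which was called higher in both mutants, and the other members were added because they bear a COS name: COS2, COS4, COS6, COS7, COS9, COS10, COS12 and COS111. A probe set was taken as a member where the gene name in the deposited annotation equalled one of these 9 genes. This gave 9 probe sets, 1 for each gene, of 5713 for S. cerevisiae and of 10928 on the array, which also carries 4999 probe sets for fission yeast (Schizosaccharomyces pombe). The differences of COS8 from wild type in both mutants are the values that chose it, so they are given as a description with no test. COS1, COS3 and COS5, the remaining genes with a COS name in a RefSeq gene table of the R64 assembly, had 0 probe sets under their names and were not analysed here.

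COS proteins are membrane proteins with several membrane-spanning stretches, encoded by a family of closely similar genes that mostly lie near chromosome ends. They are known for carrying ubiquitin into endosomes and for bringing other surface proteins with them into the multivesicular body, from which cargo reaches the vacuole to be degraded. Genes close to telomeres can be kept low by silencing through the Sir proteins, of which Sir2 uses NAD+, and the COS family has been linked to NAD+ by that route. In the order of the RefSeq table, 8 of the 9 members lay near an end: COS2, COS7 and COS12 were the outermost annotated gene of their arm, COS6 was gene 2 from the end, COS8 and COS10 gene 4, COS9 gene 5 and COS4 gene 6. COS111 lay 103 genes from the end of chromosome II. It is a gene of another kind that shares only the name, known for its part in resistance to an antifungal drug.

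Euc1 (Ymr111c) is a DNA-binding protein that the study found at a small set of intergenic sites, called ub-hotspots, where proteins on chromatin are ubiquitylated by the SUMO-targeted ligase Slx5/Slx8. In experiment A a strain lacking the gene (ymr111c/euc1∆, 3 arrays) was compared with wild type (3 arrays), and in experiment B a strain in which the main SUMO acceptor lysine of Euc1 is exchanged for arginine (ymr111c/euc1-K231R, 3 arrays) was set against a separate wild type (3 arrays). All cultures grew at 30°C in rich medium with 2% glucose to mid-log phase (OD600 of 0.7 to 1), the wild-type samples of both experiments bear the same strain name, and the series calls the arrays of a group biological triplicates. The remaining alleles of the strains are not given in the labels, and each mutant is 1 strain. The study describes the K231R allele as carrying a URA3 marker.

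Values are RMA log2 levels from Affymetrix Yeast Genome 2.0 arrays, on which 1 unit is a doubling. They cannot be compared between probe sets, so the members are not ranked against each other by level. Over the S. cerevisiae probe sets, arrays of a group correlated at 0.996 to 0.999, and array medians lay between 10.4 and 10.6. Fission yeast probe sets should find no RNA to bind in these samples, and their 95th percentile, taken here as the level of background, was 5.24 in experiment A and 5.30 in experiment B. EUC1, the targeted gene, was at 9.02 to 9.15 on the wild-type arrays of experiment A, against 3.64 to 3.88 without the gene. In experiment B its wild-type arrays were at 9.09 to 9.25 and the euc1-K231R arrays at 8.12 to 8.19. This difference of -1.02 ± 0.05 (SE) was called (limma, adjusted p = 1.9e-04). The euc1-K231R strain thus had a lower EUC1 signal on the array besides the exchanged lysine, and these cannot be told apart here. URA3 was at 8.57 to 8.73 in wild type and at 11.4 to 11.5 in euc1-K231R. Markers of mating type a had a median of 12.01 and markers of mating type alpha of 6.79 in the wild type of experiment A. The probe sets of COS2, COS4 and COS7 are of the array's shared kind, whose probes can also bind transcripts of similar genes, so their values may hold RNA of other COS genes. The 6 remaining members have single-gene probe sets.

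COS8 (YHL048W, chromosome VIII) was higher in both mutants, and its arrays did not overlap in either experiment. In experiment A its level was 10.09, 10.24 and 10.10 in wild type, against 11.05, 11.00 and 10.98 in euc1∆. The lowest mutant array was above the highest wild-type array, and the mutant arrays spread over an SD of 0.03. The difference was 0.87 ± 0.05 (SE), a fold of 1.83, the most positive of 5713 probe sets. In experiment B the level of COS8 was 8.39, 8.78 and 8.30 in wild type, against 9.66, 9.59 and 9.60 in euc1-K231R. Wild-type replicate 2 stood above the other wild-type arrays, and all mutant arrays were higher still. The difference was 1.13 ± 0.12 (SE), a fold of 2.18 and place 3 from the top. Without wild-type replicate 2 it was 1.27, and without any other single array of that experiment it was between 1.03 and 1.14. The difference in euc1∆ minus that in euc1-K231R was -0.26 ± 0.14 (SE). Leaving out 1 wild-type array of experiment B moved it to -0.41 (replicate 2) or to -0.16 (replicate 3).

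**Figure D1:**
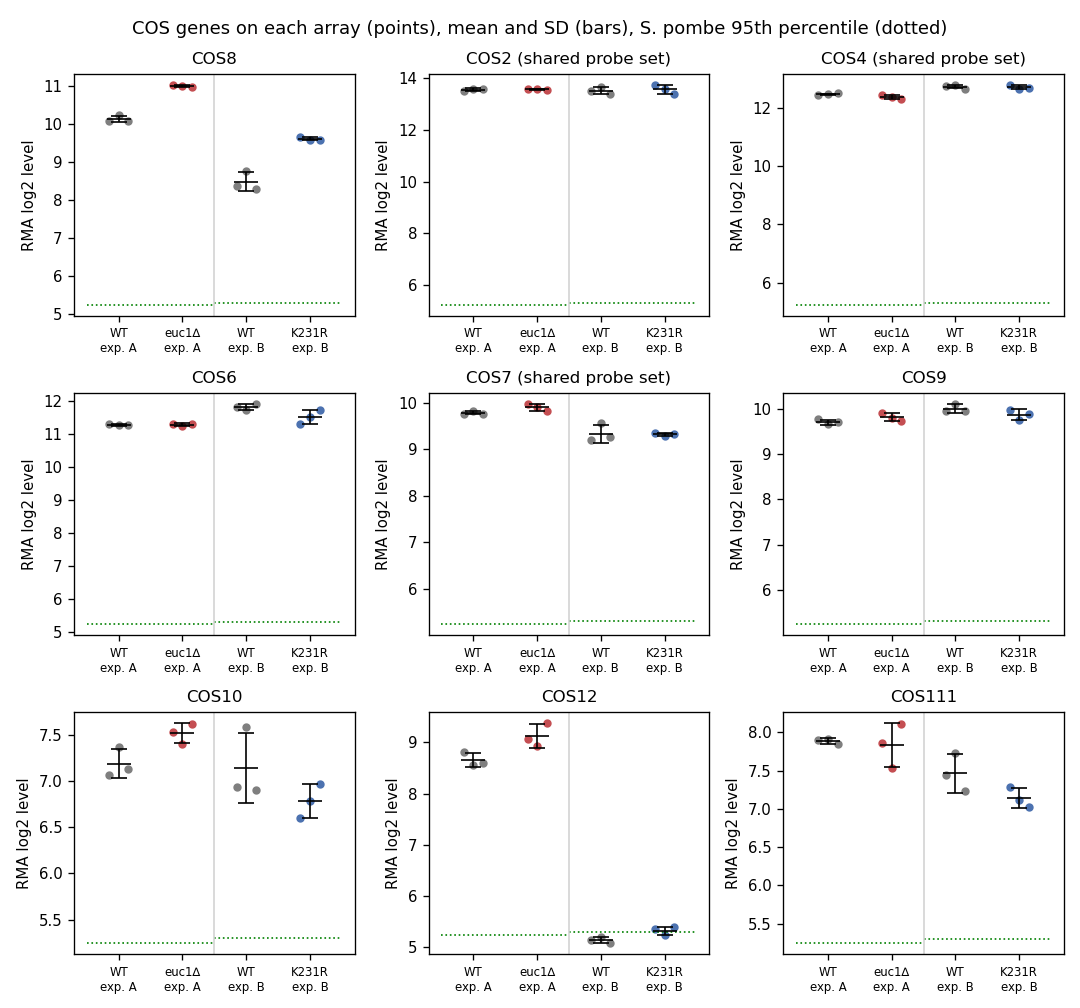
RMA log2 level of each COS gene (vertical axes, each panel with its own range) on the 12 arrays, by group. Points are arrays, bars the mean and SD (n = 3), and dotted lines the level of background. COS8 is higher in each mutant than in the wild type of the same experiment, and COS12 lies at the dotted line in experiment B only.

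In euc1∆, none of the other 8 members passed the test (limma with Benjamini-Hochberg adjustment over 5713 probe sets, adjusted p under 0.05), with adjusted p from 0.23 to 0.97. Over all probe sets 0.105% were called (0.0525% higher and 0.0525% lower). An unadjusted p under 0.05 was found for 4 of the other 8 members, 3 higher and 1 lower, and for 12.6% of all probe sets. The largest of these differences was that of COS12 (YGL263W, chromosome VII, left arm). Its level was 8.81, 8.56 and 8.60 in wild type, against 9.07, 8.93 and 9.38 in euc1∆. Every mutant array was above every wild-type array, but the mutant arrays spread over an SD of 0.23. The difference was 0.47 ± 0.12 (SE), with a 95% interval from 0.18 to 0.76 and an adjusted p of 0.23, and was the fourth most positive of all. COS10 (YNR075W, chromosome XIV) was at 7.06, 7.36 and 7.13 in wild type and at 7.53, 7.40 and 7.62 in euc1∆. Its groups were apart by a narrow margin, with a difference of 0.33 ± 0.09 (SE, adjusted p = 0.25).

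The other members of experiment A differed by less. COS7 (YDL248W, chromosome IV) had a difference of 0.12 (95% interval 0.01 to 0.23, adjusted p = 0.38) and overlapping groups. COS4 (YFL062W, chromosome VI) was at 12.44 to 12.48 in wild type and at 12.29 to 12.43 in euc1∆, with a difference of -0.11 (95% interval -0.21 to -0.002, adjusted p = 0.39). It was the only member whose mutant arrays all lay below the wild type. COS9 (YKL219W, chromosome XI) had a difference of 0.11 (95% interval -0.02 to 0.24). COS2 (YBR302C, chromosome II) and COS6 (YGR295C, chromosome VII, right arm) were within 0.011 of wild type, with 95% intervals from -0.08 to 0.10 and from -0.08 to 0.09. COS111 (YBR203W) had a difference of -0.05 (95% interval -0.37 to 0.27), with euc1∆ arrays between 7.53 and 8.11. Of the other 8 members, COS10 and COS12 had groups apart upward and COS4 downward, where 18.3% of all probe sets had groups apart (9.84% upward and 8.45% downward). The median difference of the other 8 members was 0.06, beside 0.00 over all probe sets.

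In euc1-K231R, again none of the other 8 members passed, with adjusted p from 0.16 to 0.94. Over all probe sets 0.805% were called (0.193% higher and 0.613% lower). After quantile normalisation COS12 passed, with a difference of 0.39 (adjusted p = 0.021). An unadjusted p under 0.05 was found for 3 of the other 8, 1 higher and 2 lower, and for 19.3% of all probe sets. COS12 was at 5.14, 5.19 and 5.08 in wild type and at 5.35, 5.23 and 5.39 in euc1-K231R. The groups did not overlap, but the mean of wild type lay below the level of background and that of the mutant, 5.32, close to it. The difference was 0.19 ± 0.06 (SE, 95% interval 0.06 to 0.32, adjusted p = 0.16), and at this level the array background limits what can be measured of the gene.

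COS6 was lower in all 3 mutant arrays of experiment B. It was at 11.80, 11.72 and 11.91 in wild type and at 11.30, 11.52 and 11.72 in euc1-K231R, where the highest mutant array lay just under the lowest wild-type array. The difference was -0.30 ± 0.10 (SE, 95% interval -0.54 to -0.05, adjusted p = 0.20), and -0.19 without mutant replicate 1. With weights for array quality it was called, with adjusted p of 0.011 and 0.040 by the 2 algorithms tried. These called 1909 and 759 of all 5713 probe sets, and the first did not converge, so the calls of COS6 are not particular to it. COS111 had a difference of -0.33 (95% interval -0.63 to -0.03, adjusted p = 0.23), with overlapping groups, and of -0.19 without wild-type replicate 2. COS10 was at 6.94, 7.58 and 6.90 in wild type and at 6.60, 6.79 and 6.97 in euc1-K231R. Wild-type replicate 2 was the highest of these arrays, whereas for COS8 it was the highest of the wild-type arrays only. The COS10 difference was -0.36 ± 0.19 (SE, 95% interval -0.79 to 0.08). It was -0.13 without that array and -0.16 after quantile normalisation. COS9 had a difference of -0.13 (95% interval -0.30 to 0.04). COS2, COS4 and COS7, the members with shared probe sets, had differences of 0.06, -0.02 and -0.02, with 95% intervals inside -0.23 to 0.30. Of the other 8 members, COS12 had groups apart upward and COS6 downward, beside 25.7% of all probe sets (13.9% upward and 11.8% downward). The median difference of the other 8 members was -0.08, beside 0.00 over all probe sets.

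**Figure D2:**
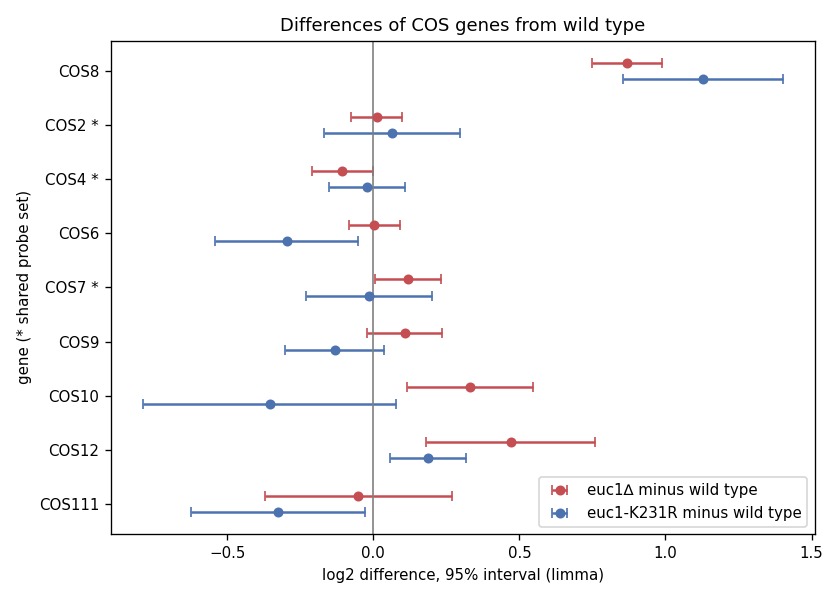
Difference of each COS gene from wild type (horizontal axis, log2) in euc1∆ (red) and euc1-K231R (blue), with 95% intervals from limma, and shared probe sets marked with an asterisk. COS8, chosen for these values, lies at 0.87 and 1.13, and the other 8 genes lie between -0.36 and 0.47.

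The effects of the mutants were then compared gene by gene over the 12 arrays, as the difference in euc1∆ minus that in euc1-K231R. None of the other 8 members passed, beside 1.3% of all probe sets called (0.788% higher and 0.508% lower). An unadjusted p under 0.05 was found for 3 of them, beside 16.8% of all probe sets. All of these were more positive in euc1∆: COS10 by 0.68 ± 0.23 (SE, 95% interval 0.18 to 1.19, adjusted p = 0.17), COS6 by 0.30 ± 0.12 (SE, adjusted p = 0.25) and COS9 by 0.24 ± 0.10 (SE, adjusted p = 0.25). COS12 had a value of 0.28 (95% interval -0.03 to 0.60), COS111 of 0.28 (-0.17 to 0.72) and COS7 of 0.13 (-0.11 to 0.38). These values moved with the processing and with single arrays: COS12, at background in experiment B, was at 0.077 after quantile normalisation and at 0.16 without euc1∆ replicate 3, COS111 at 0.063 with array weights and from 0.14 to 0.43 without single arrays, COS7 at 0.022 without wild-type replicate 2 of experiment B, and COS6 at 0.19 without euc1-K231R replicate 1. The COS10 value ran from 0.46 to 0.70 over the processing settings and from 0.46 to 0.80 without single arrays. COS2 had a value of -0.05 and COS4 of -0.09. The median of the other 8 was 0.26, beside 0.00 over all probe sets. The 95% intervals of COS2, COS4, COS7, COS12 and COS111 included 0. COS8 had a value of -0.26. The COS8 value is made of those that chose the gene, so its sign is not set against the other members. With array weights COS6 and COS9 were called, with adjusted p of 0.024 and 0.016 by the default algorithm and of 0.048 and 0.040 by the gene-by-gene algorithm. The default algorithm, which did not converge, called 1135 of all 5713 probe sets in this comparison, and the gene-by-gene algorithm 645.

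The wild-type level of COS8 itself was not the same in the 2 experiments. It was 10.14 ± 0.09 (SD, n = 3) in experiment A and 8.49 ± 0.26 in experiment B, a gap of -1.65, so that COS8 in euc1-K231R (9.62 ± 0.04) remained below the wild type of experiment A. COS12 was at 8.66 ± 0.13 in experiment A and at 5.14 ± 0.06 in experiment B, where it lay below the background of 5.30, so its gap, -3.52 as measured, can only be bounded. With every level under the background of its experiment raised to that background, a setting chosen after the data were seen, the gap of COS12 was -3.35, the largest in size of all 5713 probe sets, and that of COS8 was unchanged at -1.65. The other members had gaps between -0.45 for COS7 and 0.54 for COS6. Over all probe sets the median gap was 0.16, the median size of a gap was 0.25, and 133 probe sets (2.33%) had a gap of more than 1. COS8 was at place 28 in size. The RMA values of the 2 experiments share no identical value, whereas each pair of arrays within an experiment shares 42 or more, and since it is not stated that the experiments were normalised together these gaps carry no test. After quantile normalisation of all 12 arrays together the gap was -1.67 for COS8 and -3.67 for COS12. Experiment, culture, hybridisation and scaling cannot be told apart here, and the labels give no batch.

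**Figure D3:**
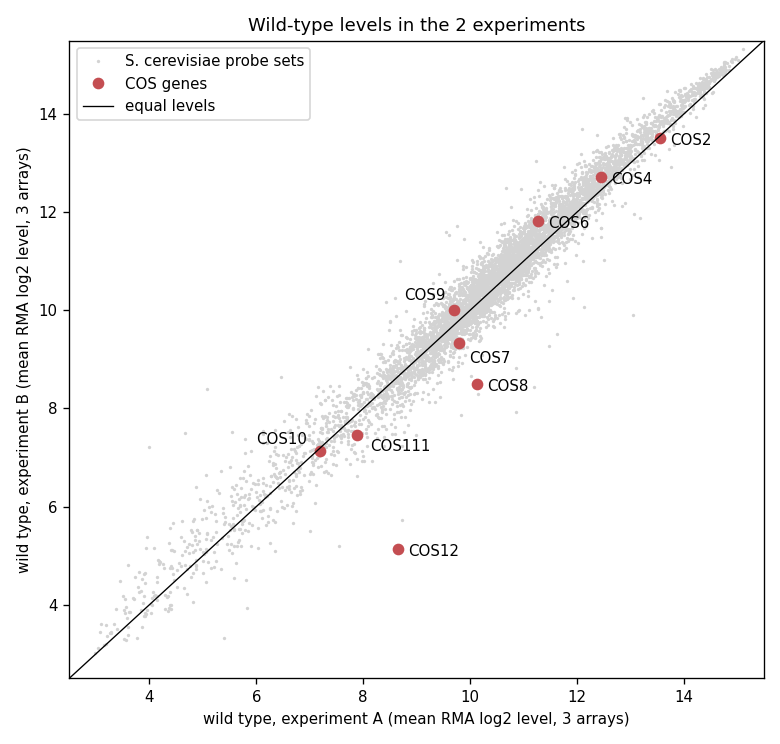
Mean wild-type level in experiment A (horizontal) and experiment B (vertical), both RMA log2 over 3 arrays, for all S. cerevisiae probe sets (grey) and the COS genes (red), with the line of equal levels. COS12, which is below background in experiment B and has a gap of -3.52, and COS8, with a gap of -1.65, lie below the line, and the other COS genes have gaps of -0.45 to 0.54.

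Whether the genes beside the members moved with them was read from the 3 annotated genes on each side, in the order of the RefSeq table. Of 43 such genes, 29 had probe sets under their names (31 in all). Beside COS8, YHL048C-A, a small gene of unknown function, was at 7.32, 7.30 and 7.39 in the wild type of experiment A and at 7.66, 7.59 and 7.38 in euc1∆. The difference was 0.21 (95% interval 0.03 to 0.38, adjusted p = 0.35), with overlapping groups, and in euc1-K231R it was -0.06 (adjusted p = 0.60). ARN2, on the other side of COS8, encodes a transporter of iron bound to siderophores. It had differences of -0.14 (adjusted p = 0.53) in euc1∆ and 0.10 (adjusted p = 0.50) in euc1-K231R. YHL050C, YHL049C, PAU13 and PXP3, the other genes within 3 of COS8, had no probe set under their names and were not analysed here.

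Of the 31 probe sets of neighbours, 8 had an unadjusted p under 0.05 in euc1∆ and 14 in euc1-K231R, where 12.6% and 19.3% of all probe sets had one. In euc1∆ 1 of the 31 was called, beside the 0.105% of all probe sets, and this was YGL262W, a gene of unknown function next to COS12. It was at 5.86, 5.80 and 5.80 in wild type and at 6.44, 6.30 and 6.27 in euc1∆, a rise of 0.51 ± 0.05 (SE, adjusted p = 0.035). It lost its call without any single array of that experiment other than mutant replicate 3, and also in the fit to all probe sets, with the trended robust prior and with the replicate block, with adjusted p up to 0.22. In experiment B YGL262W was below the background of 5.30, at 3.85 to 4.05 in wild type and at 3.64 to 3.85 in euc1-K231R, and its difference was -0.18 (adjusted p = 0.26). No effect of euc1-K231R on it could be measured at that level. In euc1-K231R 2 of the 31 were called, beside the 0.805% of all probe sets. URA1, an enzyme of pyrimidine synthesis that lies 3 genes from COS9, fell by 0.76 (adjusted p = 2.4e-04), in the strain whose allele carries URA3. AIF1, a gene for a factor of programmed cell death next to COS10, rose by 0.29 ± 0.05 (SE, adjusted p = 0.047), and lost its call without any 1 of 5 arrays (adjusted p up to 0.23), wild-type replicate 3 being the exception, and also in the fit to all probe sets, after quantile normalisation and with the replicate block.

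**Figure D4:**
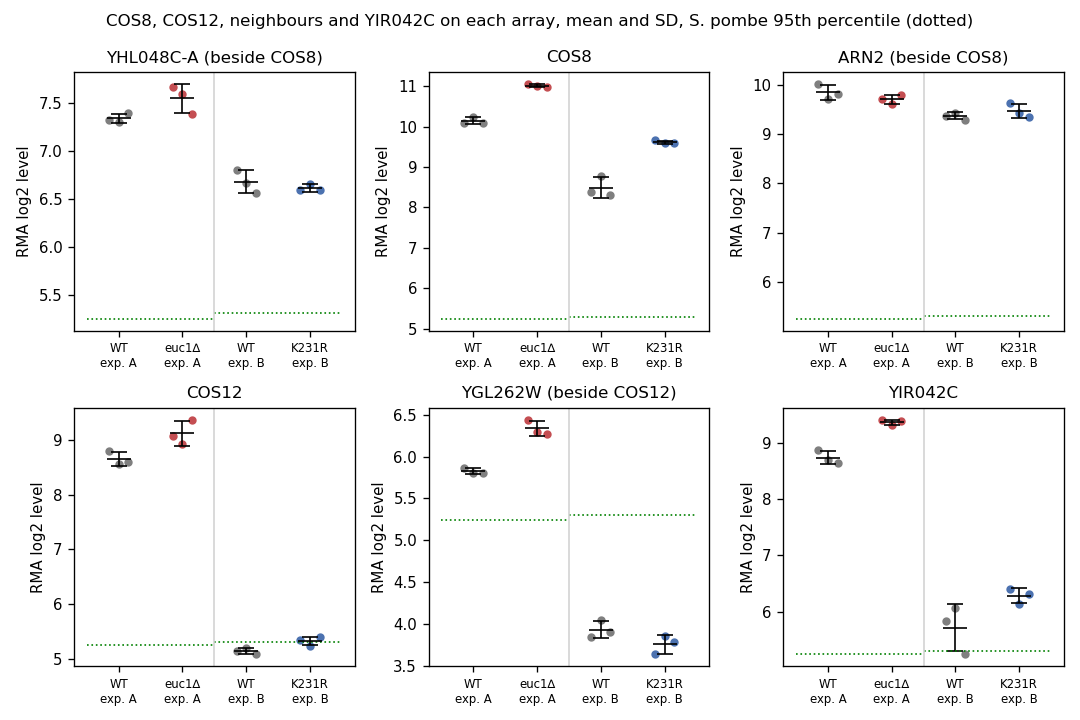
RMA log2 level (vertical axes, each with its own range) of COS8 and COS12, their measured neighbours and YIR042C on the 12 arrays. Points are arrays, bars the mean and SD (n = 3), and dotted lines the level of background. YHL048C-A and ARN2 do not separate by mutant as COS8 does. The wild-type mean of every gene shown is lower in experiment B, with gaps from -0.48 for ARN2 to -3.52 for COS12.

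The probe sets whose pattern was most like that of COS8 were sought by Pearson's r over the 12 arrays, with each array's value taken minus the wild-type mean of its experiment. Among 315 single-gene probe sets with an SD of at least 0.2 on this scale, the most alike was YIR042C, a gene of unknown function (r = 0.88). It was at 8.87, 8.69 and 8.64 in wild type and at 9.40, 9.31 and 9.38 in euc1∆, a rise of 0.63 ± 0.06 (SE, adjusted p = 0.035). Its call was lost on leaving out wild-type replicate 2 or 3 or mutant replicate 1 or 2, in the fits to all probe sets and to 12 arrays, after quantile normalisation and with the replicate block (adjusted p up to 0.22). In experiment B it was at 5.84, 6.06 and 5.25 in wild type and at 6.41, 6.14 and 6.31 in euc1-K231R. Its groups were apart, as were those of 25.7% of all probe sets. The difference was 0.57 ± 0.19 (SE, 95% interval 0.12 to 1.02, adjusted p = 0.18), and from 0.34 to 0.74 without single arrays. Wild-type replicate 3 lay below the background of 5.30 and the other arrays not far above it. The wild-type gap of YIR042C between the experiments was -3.02, place 5 in size. The next were URA3 (r = 0.71), ATG19 (r = 0.67), TPO4 (r = 0.67) and COS12 (r = 0.63). URA3 owed its place to experiment B, with differences of 0.01 in euc1∆ and 2.79 in euc1-K231R. ATG19, a receptor for cargo of the cytoplasm-to-vacuole pathway, had differences of 0.43 and 0.17, and TPO4, a polyamine exporter, of 0.32 and 0.36, none of these called in the main analysis. ATG19 was called in euc1∆ in the 12-array fit (adjusted p = 0.046), with both array weight algorithms and without mutant replicate 3. In euc1-K231R both algorithms called ATG19 and TPO4, among 1909 and 759 probe sets called of 5713. The other members had r from -0.61 for COS6 to 0.36 for COS2. These correlations are descriptive, since the points share experiments and groups.

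Related genes were read from lists, and in euc1∆ and in euc1-K231R no member of any of these lists was called. The DUP240 genes are the nearest relatives of the COS family and encode smaller membrane proteins. All 10 were measured, by 11 probe sets, with a median difference of 0.11 in euc1∆ (8 of 11 above 0) and of -0.08 in euc1-K231R (2 of 11 above 0), beside 0.00 over all probe sets in both. The one nearest to COS8, DFP4 (YHL044W) on the same chromosome arm, had differences of 0.34 ± 0.06 (SE, adjusted p = 0.15) and 0.20 ± 0.10 (SE, adjusted p = 0.32). DFP3 (YCR007C), which lies beside a ub-hotspot, had differences of 0.14 and -0.13. MST28, whose product takes part in vesicle formation, has 2 probe sets. The shared one had differences of 0.16 and -0.09, and the single-gene one of 0.13 and -0.55 (adjusted p = 0.66 and 0.27). KTD1, which protects against a viral killer toxin, had differences of 0.11 and -0.03.

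The 25 genes of multivesicular body sorting, the route that COS proteins serve, had medians of -0.01 in euc1∆ and 0.02 in euc1-K231R. The ubiquitin protease gene DOA4 was at 0.11 (adjusted p = 0.34) and 0.20 (adjusted p = 0.18), the ESCRT gene STP22 at 0.08 and 0.14, and the ubiquitin gene UBI4 at -0.04 and -0.15. The 22 measured genes of silencing and subtelomeric chromatin had medians of -0.02 and 0.07. Among these, the deacetylase gene HDA1 was at -0.21 (adjusted p = 0.23) and 0.00, the telomere-binding gene YKU80 at -0.17 and -0.19, and the chromatin assembly gene RLF2 at 0.03 and 0.18. The 15 genes of NAD+ synthesis and salvage had medians of 0.05 and 0.07. BNA2, which opens the synthesis of NAD+ from tryptophan, had differences of 0.39 ± 0.06 (SE, adjusted p = 0.13) and -0.17 ± 0.08 (SE, adjusted p = 0.29), and these differed by 0.57 ± 0.11 (SE, adjusted p = 0.032). That call was lost in the fit to all probe sets (adjusted p = 0.10), with the replicate block (adjusted p = 0.12) and without any 1 of 8 arrays (wild-type replicates 2 and 3 and mutant replicates 1 and 2 of experiment A, all wild-type replicates and mutant replicate 2 of experiment B). BNA1 and BNA6 of the same route were at 0.21 and 0.15 in euc1∆ and at 0.01 and 0.11 in euc1-K231R. The 16 zinc-responsive genes had medians of 0.05 and -0.08, with IZH2, FET4 and IZH1 at -0.21, -0.26 and -0.23 in euc1-K231R (adjusted p from 0.12 to 0.15).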

How the data were processed

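Total RNA of 12 cultures was hybridised to Affymetrix Yeast Genome 2.0 arrays. The deposited values are log2 levels made by the authors with RMA (background correction, quantile normalisation, probe summary). For the tool versions, the genome build and a joint or separate normalisation of both experiments, nothing was found in the text used here. The deposited comparison tables gave the gene of each probe set. Their 4 columns of fold changes and adjusted p hold the study's own comparisons and were not used.

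Mutant and wild type were compared within each experiment (6 arrays), and the effects with each other (12 arrays, 4 group means), with limma 3.58.1 (R 4.3.3) over 5713 S. cerevisiae probe sets with Benjamini-Hochberg adjustment, called at an adjusted p under 0.05. Of these, 132 are shared sets, which were kept. Alternatives were the probe sets tested, a filter on low values, centring, quantile normalisation, a trended robust prior, a 12-array fit, array weights, the replicate number as a block, and each array left out. The fit was tested on simulated data. Figures were drawn with matplotlib 3.10.9.

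The members and lists were chosen with earlier results of these data known. Named were all members, EUC1 and URA3, called neighbours and both measured neighbours of COS8, the DUP240 genes beside COS8 or a ub-hotspot, the called members of each other list and up to 3 with the smallest p, and the 5 probe sets most like COS8. The single-gene MST28 set, outside that rule, was added after its value was seen. Names and gene order came from a RefSeq table of the R64 assembly, in which 5643 of 5664 named genes were found. Its coordinates are not printed, since the array annotation names no build. Deviations of samples with the same number correlated at -0.19, 0.11 and -0.21 in experiment A and at -0.22, -0.09 and 0.31 in experiment B. Those of samples with different numbers ran from -0.21 to 0.30 in experiment A and from -0.36 to 0.42 in experiment B. With so few arrays this cannot settle whether the numbers pair samples. The main fit used no pairing, and the replicate block was an alternative. The 3 arrays per group limit the precision.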

Additional observations from a re-analysis of the deposited data

Results flagged for a closer look

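For 5 named genes the effect in euc1∆ differed from that in euc1-K231R by the test of the difference itself (limma, 12 arrays, adjusted over 5713 probe sets), and none of these is a COS gene. YGL262W, beside COS12, differed by 0.690 (SE 0.10), but both of its groups in experiment B, at means of 3.93 and 3.76, were below the background of 5.30, so the value does not measure an effect of euc1-K231R on it. BNA2, of NAD+ synthesis, differed by 0.568 (SE 0.11, adjusted p = 0.032), and its adjusted p over the alternatives ran from 9.6e-04 to 0.12, above the threshold in the fit to all probe sets, in the replicate block and without any 1 of 8 arrays. URA1, 3 genes from COS9, differed by 0.797 (SE 0.05), URA3, the marker of the K231R allele, by -2.779 (SE 0.08), and EUC1, which the deletion removes, by -4.339 (SE 0.09). EUC1 was also called lower in euc1-K231R, with a difference of -1.02 (adjusted p = 1.9e-04).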

How the results depend on the processing

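Limma's default array weights did not converge for euc1-K231R and for the difference between the mutants. They called 48, 1909 and 1135 probe sets in the 3 comparisons, and 1, 4 and 3 COS genes (in euc1-K231R COS8, COS6, COS9 and COS111, and in the difference COS8, COS6 and COS9). The gene-by-gene algorithm, chosen after the counts of the default weights were seen, called 26, 759 and 645 probe sets. Of the other members it called COS6 in euc1-K231R and COS6 and COS9 in the difference. In euc1∆ no setting called a COS gene other than COS8, and COS8 lost its call with the replicate block. Calls of COS8 are given here as a description and are no test, since its values chose it. The block changed no call of a COS gene in the other comparisons. The filter on low values left COS12 out of the fit in experiment B, and levels raised to the background, a setting chosen after the data were seen, gave wild-type gaps of -3.35 for COS12 and -0.52 for YGL262W (-1.89 as measured). In euc1-K231R COS12 was called after quantile normalisation, and COS8 lost its call without wild-type replicate 1 or mutant replicate 2. In the difference, array weights aside, the only COS gene called was COS8, without wild-type replicate 2 of experiment B. Over all settings but array weights, the calls over all probe sets ran from 1 (replicate block) to 24 in euc1∆, from 13 to 130 in euc1-K231R (27 with the block) and from 23 to 107 in the difference (24 with the block). Quantile normalisation called 2 of 7 higher in euc1∆ (6 in the main analysis, 3 higher) and 26 of 71 in euc1-K231R (46, 11 higher), and median centring called 81 of 106 higher in the difference (74, 45 higher).

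Signs turned for values near 0. In euc1∆, with array weights COS6 was at -0.018 and IZH1 was at -0.023 and by the gene-by-gene algorithm COS6 was at -0.011 and IZH1 was at -0.015. With single arrays left out, COS2 ran from -0.016 to 0.026, URA3 from -0.040 to 0.048, UBI4 from -0.15 to 0.024, RLF2 from -0.0018 to 0.065, IZH2 from -0.087 to 0.049, COS6 from -0.015 to 0.028, COS111 from -0.19 to 0.10 and IZH1 from -0.065 to 0.074. In euc1-K231R, with array weights COS7 was at 0.038, by the gene-by-gene algorithm COS7 was at 0.031, after median centring HDA1 was at -0.016 and BNA1 was at -0.0053 and after quantile normalisation YHL048C-A was at 0.15 and HDA1 was at -0.016. With single arrays left out, HDA1 ran from -0.021 to 0.042, COS4 from -0.061 to 0.011, COS7 from -0.086 to 0.095, MST28 from -0.18 to 0.018, KTD1 from -0.098 to 0.054, COS2 from -0.019 to 0.15 and BNA1 from -0.020 to 0.036. In the difference between the mutants, with array weights YKU80 was at -0.014 and BNA6 was at -1.6e-04, by the gene-by-gene algorithm YKU80 was at -0.020 and after quantile normalisation YIR042C was at -0.16 and YKU80 was at -0.029. With single arrays left out, TPO4 ran from -0.23 to 0.16, YKU80 from -0.11 to 0.15, YIR042C from -0.12 to 0.29 and COS2 from -0.14 to 0.030.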
